A study of Mus musculus with 20 samples.

Results

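The integrin and laminin chain genes are described here across 4 groups of mouse samples. They were taken as every probe set with a single gene symbol of the integrin alpha (Itga), integrin beta (Itgb) or laminin (Lama, Lamb, Lamc) series, which gave 58 of the 45037 probe sets and 30 of the 17097 genes with a single symbol. These are 15 integrin alpha chains, 7 integrin beta chains and 8 laminin chains. Total RNA of 20 samples had been hybridised to Affymetrix mouse arrays, 1 array per sample. The first group holds 6 tumors of CIC-DUX4 sarcoma (CDS tumors, numbered 1 to 6), which developed under the skin of nude mice after transplantation of murine embryonic mesenchymal cells (eMC) carrying the CIC-DUX4 fusion. The second holds 6 mouse Ewing sarcoma tumors (ES tumors 41, 46, 47, 48, 49 and 51), also grown under the skin; the labels give Balb/c nude mice for the tumors. The third and the fourth are eMC in culture, 48 h after a retrovirus: 4 samples received pMYs-CIC-DUX4-IRES-GFP (eMC CIC-DUX4 5 to 8) and 4 received the vector pMYs-IRES-GFP without the fusion (eMC empty 4 to 7). The tumors had no treatment. They were whole tissue and can hold cells of the host, and the eMC are a culture in Iscove's medium with 15% serum, so tumor and eMC differ in site and time as well as in the fusion. Nothing in the labels tells if the eMC samples are separate cultures or if each tumor sample is from a separate animal. P-values between any of the groups therefore measure only the spread between these samples, which may be technical.

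Integrins are receptors of an alpha and a beta chain that span the cell membrane, bind the extracellular matrix or other cells outside, and connect through talin, kindlin and vinculin to the actin cytoskeleton inside. Laminins are trimers of an alpha, a beta and a gamma chain that assemble, with type IV collagen, nidogens and perlecan, into basement membranes. Which alpha chain pairs with which beta chain decides the ligand: Itgb1 pairs with most alpha chains, Itga8 and Itga9 pair with Itgb1 alone, Itgav pairs with several beta chains including Itgb3 and Itgb5, and Itgb2 is the beta chain of leukocytes. The receptor of Itga8 and Itgb1 binds nephronectin, fibronectin, vitronectin and tenascin-C, and is best known from the outgrowth of the ureteric bud in kidney development and from smooth muscle and other mesenchymal cells.

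Itga8 had the largest log2 fold change of the 26 members tested in 3 of the 4 comparisons, as deposited and after quantile normalization, and the third largest, after Itgb3 and Itga9, in CDS tumors against eMC CIC-DUX4. The gene lies on chromosome 2 from 12106632 to 12301985 in GRCm38.p6. Its start region is shown because Itga8 is the member on which most results turn. The 250 bases before the start of its transcript in the table, at chr2:12301945-12302194 on the minus strand, read as follows in RefSeq, 5′ to 3′.
Itga8 upstream: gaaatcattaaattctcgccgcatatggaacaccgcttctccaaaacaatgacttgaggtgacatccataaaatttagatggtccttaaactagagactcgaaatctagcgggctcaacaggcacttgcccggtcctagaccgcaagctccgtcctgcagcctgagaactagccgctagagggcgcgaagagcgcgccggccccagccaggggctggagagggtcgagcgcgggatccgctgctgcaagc
The guanine and cytosine content of this window was 56.4%, against a median of 52.4% over the same 250 bases of all promoters in the table. CIC, the DNA-binding part of the fusion, is known for binding octamers, and TGAATGAA, TGAATGGA, TCAATGAA and TCAATGGA were searched on both strands. None was found in the Itga8 window. RefSeq windows were at hand for 19 of the 30 genes, in 22 windows from 250 bases before to 50 after a start, and 1 of these held an octamer (TCAATGAA in a window of Itgb6), a share of 4.55% against 3.84% (1260 of 32851) over all promoters. These are matches of letters and no sites of binding.

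The arrays differed in the spread of their signals. The median log2 signal was 2.78 to 5.67 in CDS tumors, 2.40 to 2.85 in ES tumors, 2.33 to 7.05 in eMC CIC-DUX4 and 2.60 to 3.28 in eMC empty. In 19 of 20 arrays the signals fell into a dim and a bright part, and the lowest density between them is called the dip; 11.7% to 57.3% of probe sets lay above it in CDS tumors and 11.1% to 26.9% in eMC empty, while eMC CIC-DUX4 6 had no dip. The dip ran from 3.36 in eMC CIC-DUX4 5 to 8.19 in eMC empty 5. Among CDS tumors it was lowest in CDS 2 (4.02) and CDS 4 (4.28) and highest in CDS 5 (8.10) and CDS 6 (6.95). The same signal can thus lie above the dip on some arrays and below it on others. CDS 2 and eMC CIC-DUX4 5 and 6 stood apart by a median above 5. The median log2 fold change over the 12343 genes tested was 2.07 for eMC CIC-DUX4 against eMC empty, 0.89 for CDS tumors against eMC empty, 0.02 against ES tumors and -0.92 against eMC CIC-DUX4, and between -0.10 and 0.01 after quantile normalization. Each fold change is therefore given as deposited and after quantile normalization, and "rose" or "fell" is used only for a gene called in the same direction on both scales. A fold given as "at least" is of the deposited signals and includes the median difference over all genes. It is no bound on a change relative to other genes. A call is a Benjamini-Hochberg adjusted p under 0.05 over all genes in limma with a log2 fold change of at least 1 in size. The spread also differed: over the 26897 probe sets that passed the filter, Spearman's rank correlation between arrays of a group was 0.986 to 0.994 in eMC CIC-DUX4 and 0.982 to 0.988 in eMC empty, and 0.893 to 0.972 in CDS tumors and 0.860 to 0.939 in ES tumors. As a check of the labels, all 6 genes of a list known to respond to CIC-DUX4 (Etv1, Etv4, Etv5, Spry4, Dusp6, Vgf) rose in CDS tumors in each of the 3 comparisons, and 3 of 6 rose between the eMC groups. Of 8 mesenchymal markers, Vim was at 14.15 to 16.43 and Prrx1 at 12.93 to 14.34 on all 8 eMC arrays, while Col1a2 was below the dip on all 4 eMC empty arrays. Above the dip were 4, 3, 7 and 7 of the 8 in eMC empty 4 to 7, and all 8 in eMC CIC-DUX4 5, 7 and 8. Pdgfra, Pdgfrb and Twist1 were below it in eMC empty 4 and 5, and Thy1 in eMC empty 5.

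Of the 30 member genes, 26 passed the filter on low signals (13 alpha, 6 beta, 7 laminin). Itga5, Itgam, Itgb6 and Lamb3 did not pass and were not tested. From eMC empty to eMC CIC-DUX4, 14 of 26 members were called as deposited, all higher in eMC CIC-DUX4, where 51.1% of all genes were called. Quantile normalization left 8 calls, 7 higher and 1 lower, against 12.9% of all genes. On both scales 7 members rose and 0 fell, 26.9% of those tested against 8.12% of all genes (7.74% higher and 0.381% lower): Itga1, Itga7, Itga8, Itga10, Itgb2, Lama2 and Lamb2. For CDS tumors set against eMC empty, 11 members were called as deposited and 13 on the quantile scale, where 20.4% and 36.8% of all genes were called. On both scales 9 members rose and 0 fell, 34.6% against 17.1% of all genes (12.9% higher and 4.24% lower): Itga1, Itga6, Itga8, Itga9, Itgb2, Itgb3, Lama1, Lamb2 and Lamc1. The contrast of the tumors, CDS over ES, called 8 members as deposited and 9 on the quantile scale, against 20.8% and 33.1% of all genes. Here 8 rose and 0 fell on both scales, 30.8% against 18.8% of all genes (9.37% higher and 9.46% lower): Itga8, Itga9, Itgav, Itgb3, Itgb5, Lama1, Lama3 and Lamc1. With eMC CIC-DUX4 as the reference, 5 members were called in CDS tumors as deposited and 8 on the quantile scale, against 17.8% and 37.1% of all genes. On both scales 5 rose and 0 fell, 19.2% against 16.6% of all genes (4.05% higher and 12.5% lower): Itga6, Itga8, Itga9, Itgb3 and Lamc1. In limma at an unadjusted p under 0.05, 2, 2, 0 and 4 members were lower as deposited in these 4 comparisons in turn, and 2, 5, 1 and 5 after quantile normalization. After scaling all arrays to a common median log2 signal, 0, 3, 5 and 2 members were called in turn: Itga8, Itga9 and Itgb3 against eMC empty, these and Lama1 and Lama3 against ES tumors, and Itga9 and Itgb3 against eMC CIC-DUX4. The 3 comparisons of CDS tumors share those tumors, and both comparisons with eMC empty share those 4 arrays. Itga8 was the only one of the 26 members that rose in each of the 4 comparisons, and Itga9, Itgb3 and Lamc1 rose in each of the 3 with CDS tumors.

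**Figure D1:**
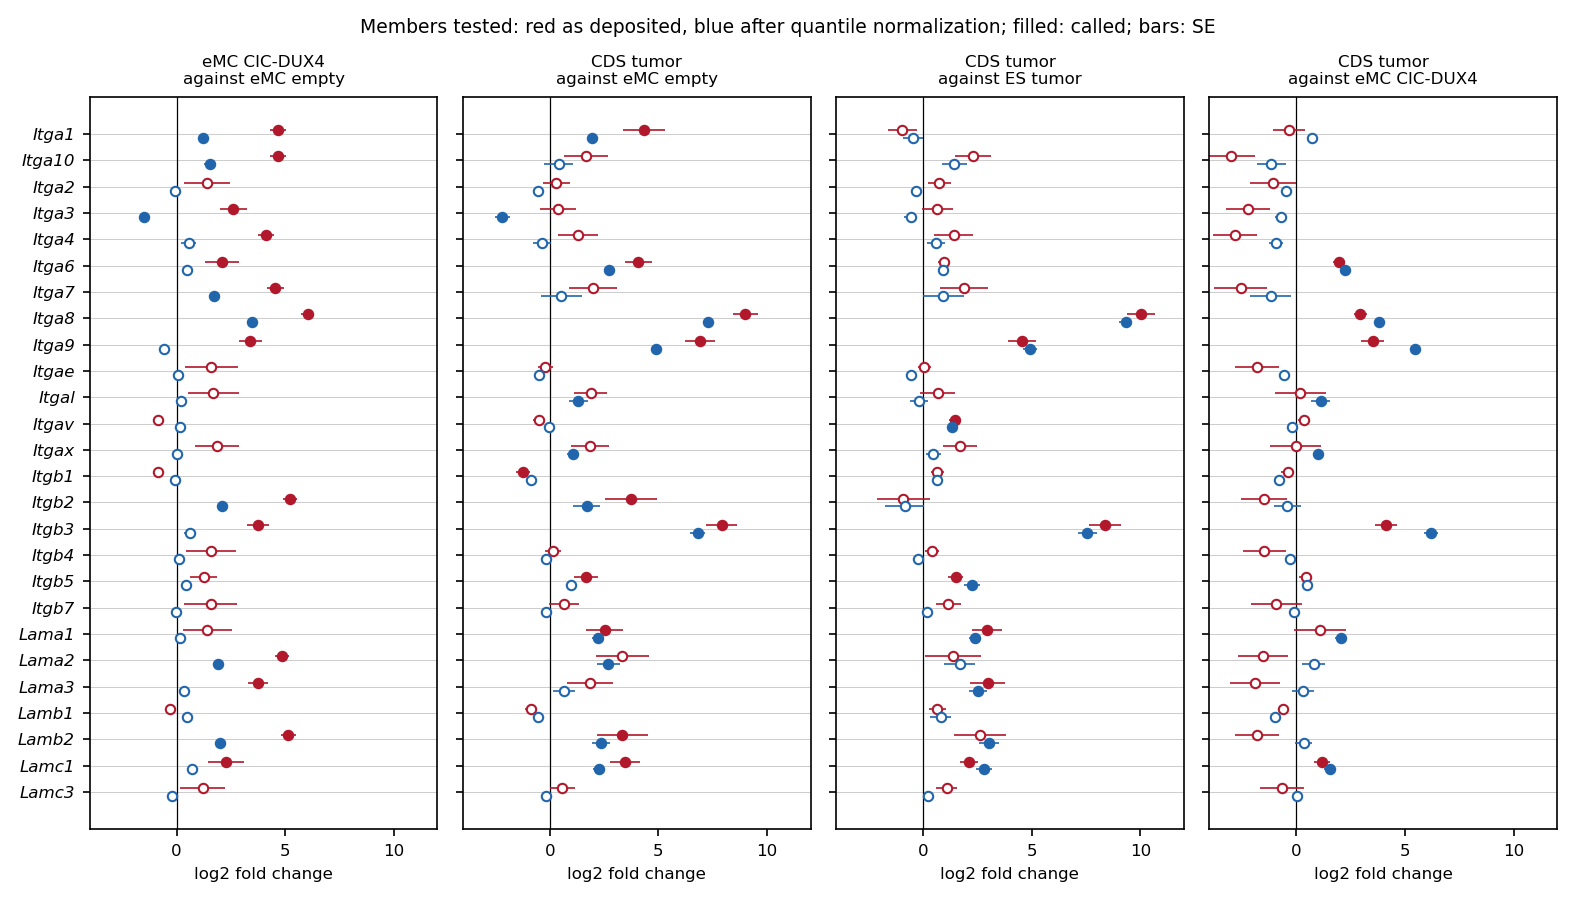
Log2 fold change (x axis) of the 26 members tested (y axis) in the 4 comparisons, one panel each. Red points are the deposited signals and blue points the quantile-normalized ones, filled where called, with bars for the standard error; Itga8 lies farthest to the right in 3 panels, and against eMC CIC-DUX4 Itga9 (3.52) and Itgb3 (4.14) lie beyond its 2.96.

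Itga8 separated the groups without overlap in all 4 comparisons. The log2 signal of its probe set was 12.26 at the lowest, 12.45 at the median and 13.60 at the highest in the 6 CDS tumors, and 9.80, 9.73, 9.63 and 9.73 in eMC CIC-DUX4 5, 6, 7 and 8. The arrays of eMC empty 4, 5, 6 and 7 were at 3.92, 3.94, 3.63 and 3.31, and ES tumors were at 2.11 at the lowest, 2.73 at the median and 2.93 at the highest. Every array of eMC empty and of ES tumors was below its dip, so that those groups give only a bound, and the order of these groups, CDS tumors above eMC CIC-DUX4 above the rest, held array by array. Relative to eMC empty, Itga8 in eMC CIC-DUX4 was at least 7.28-fold higher (log2 fold change 6.02 ± 0.30 SE, adjusted p = 8.28e-06; 3.48 after quantile normalization) and Itga8 in CDS tumors at least 56.7-fold higher (8.99 ± 0.57, adjusted p = 9.05e-09; 7.28). CDS tumors were at least 199-fold higher than ES tumors (10.04 ± 0.64, adjusted p = 1.34e-08; 9.33). CDS tumors also exceeded eMC CIC-DUX4, by 2.96 ± 0.30 (adjusted p = 2.42e-05; 3.80 after quantile normalization), where both groups were bright. Relative to the median of all genes these 4 differences were 3.95, 8.10, 10.02 and 3.89. After scaling to a common median the difference between the eMC groups was 4.46 with an adjusted p of 0.17, and Itga8 was no longer called there or against eMC CIC-DUX4 (adjusted p = 0.0856). A second probe set of Itga8 that passed the filter was higher by 4.05 on the log2 scale in CDS tumors against eMC empty and by 4.90 against ES tumors, both called over the 19542 probe sets, and was not called as deposited against eMC CIC-DUX4 (1.43, adjusted p = 0.435) or between the eMC groups (2.62, adjusted p = 0.0565).

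**Figure D2:**
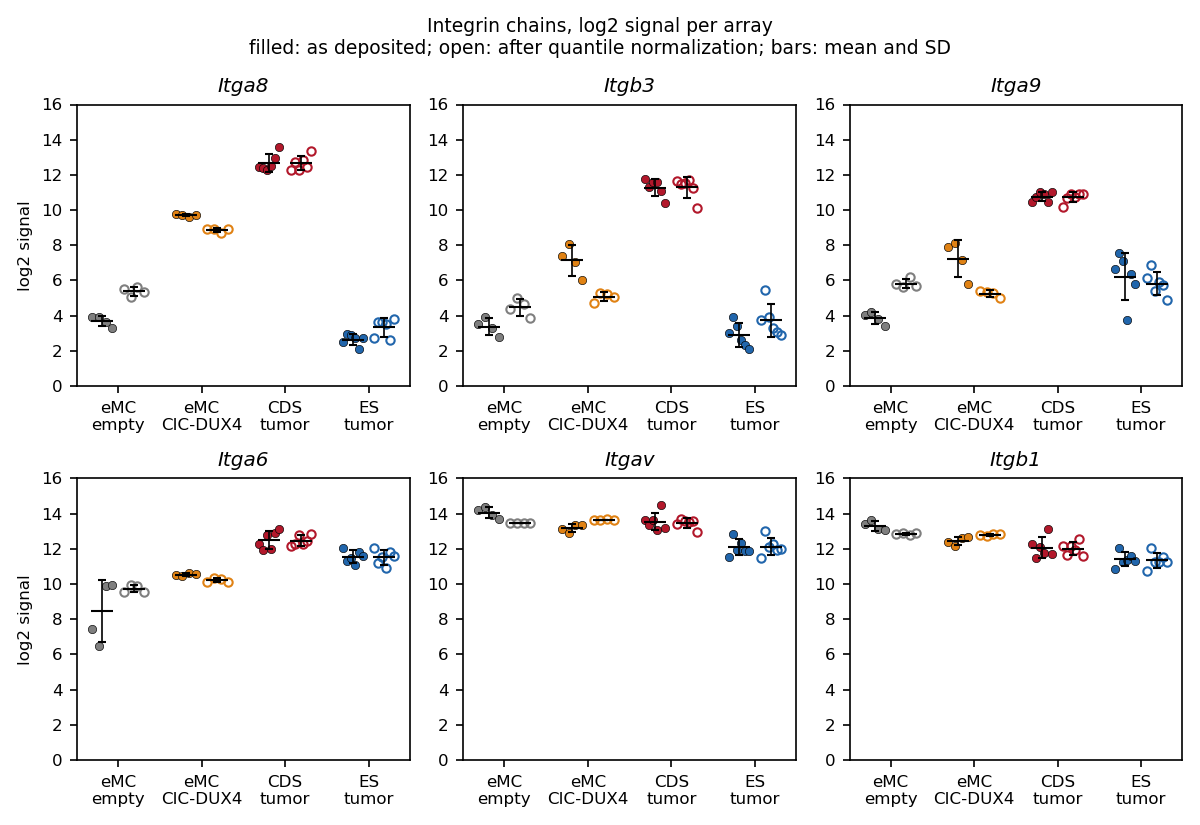
Log2 signal (y axis) of 6 integrin chains on each array of the 4 groups (x axis), filled as deposited and open after quantile normalization, with bars for the mean and SD. CDS tumors of Itga8, Itgb3 and Itga9 lie above every array of the other groups on both scales, while Itgav and Itgb1 are bright on all 20 arrays.

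Itgb1, the only partner of Itga8, was not called higher in any comparison. Its log2 signal was 13.43, 13.66, 13.14 and 13.05 in eMC empty 4 to 7, 12.40, 12.17, 12.61 and 12.65 in eMC CIC-DUX4 5 to 8, between 11.47 and 13.12 (median 11.94) in CDS tumors and between 10.88 and 12.05 (median 11.34) in ES tumors. All 20 arrays were bright, and CDS tumors overlapped each other group. CDS tumors were lower than eMC empty by -1.25 ± 0.33 on the log2 scale (adjusted p = 0.0121), called as deposited but not after quantile normalization (-0.85, adjusted p = 0.00139, below the fold set). Another probe set of Itgb1 was called lower as deposited (-1.35), and the third was not called (-1.47, adjusted p = 0.332). Between the eMC groups the difference was -0.86, against ES tumors 0.66 and against eMC CIC-DUX4 -0.38, none of them called. The other probe sets of Itgb1 differed from this between the eMC groups, where one was called lower as deposited (-1.07, adjusted p = 0.000524) but not after quantile normalization (-0.32), and the third was called lower after quantile normalization (-1.65) but not as deposited (0.13).

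Itgb3, the beta chain that pairs with Itgav in the vitronectin receptor and with Itga2b on platelets, had the largest log2 fold change among the beta chains in each of the 3 comparisons of CDS tumors. In CDS tumors its log2 signal was 10.39 at the lowest, 11.45 at the median and 11.75 at the highest. In eMC CIC-DUX4 5 to 8 it was 7.41, 8.10, 7.05 and 6.01, in eMC empty 4 to 7 3.50, 3.94, 3.28 and 2.80, and in ES tumors 2.10 at the lowest, 2.84 at the median and 3.90 at the highest. CDS tumors lay above all other arrays, and eMC empty and ES tumors lay below their dips. CDS tumors were at least 21.5-fold higher in Itgb3 than eMC empty (7.90 ± 0.70 on the log2 scale, adjusted p = 4.97e-07; 6.81 after quantile normalization) and at least 75.2-fold higher than in ES tumors (8.38 ± 0.75, adjusted p = 5.06e-07; 7.56). Against eMC CIC-DUX4 the log2 fold change was 4.14 ± 0.49 (adjusted p = 8e-05; 6.21). A dimmer probe set of Itgb3 was called as deposited against ES tumors (2.29, adjusted p = 0.0104) and not against eMC empty (1.90, adjusted p = 0.0685) or eMC CIC-DUX4 (1.46, adjusted p = 0.338), and was called in all 3 after quantile normalization (1.04 to 1.18). Between the eMC groups the brighter probe set of Itgb3 was called as deposited only (3.76, adjusted p = 0.00022), and after quantile normalization it was 0.60 with an adjusted p of 0.0529. The dimmer probe set was not called there on either scale (0.44 as deposited, adjusted p = 0.762). The other platelet chain, Itga2b, is no member by the rule and was not called in CDS tumors in any of the 3 comparisons (1.22, -0.63 and -2.50). Of 5 platelet markers tested, 1 rose in CDS tumors against eMC empty (Pf4, 4.24), 1 against ES tumors (Ppbp) and 1 against eMC CIC-DUX4 (Pf4, 1.57). Over all genes 12.9%, 9.37% and 4.05% rose in turn. Pf4 against ES tumors was 0.24 and was not called. What part platelets have in the Itgb3 signal was not tested.

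Itgav, which binds the arginine-glycine-aspartate motif of vitronectin and fibronectin, was bright on all arrays. Its log2 signal was 14.19, 14.38, 13.94 and 13.67 in eMC empty 4 to 7, 13.13, 12.93, 13.35 and 13.38 in eMC CIC-DUX4 5 to 8, between 13.06 and 14.47 (median 13.48) in CDS tumors and between 11.55 and 12.85 (median 11.93) in ES tumors. As deposited, the CDS and ES tumors did not overlap. CDS tumors rose by 1.47 ± 0.27 against ES tumors (adjusted p = 0.000774; 1.33 after quantile normalization). They were not called against eMC empty (-0.49, adjusted p = 0.192) or eMC CIC-DUX4 (0.36, adjusted p = 0.307). A dimmer probe set of Itgav that passed the filter gave other values. As deposited it was -1.35 against eMC empty (adjusted p = 0.292) and 1.42 against ES tumors (adjusted p = 0.059). Quantile normalization made these -4.07, called lower, and 0.25, not called. Against eMC CIC-DUX4 that probe set was called lower on both scales (-3.64 as deposited, adjusted p = 0.0139, and -2.06). Between the eMC groups its calls were opposite, 2.29 as deposited and -2.01 after quantile normalization. Itgb5, another vitronectin-binding partner of Itgav, rose by 1.50 ± 0.35 in CDS tumors against ES tumors (adjusted p = 0.00558; 2.25). Its log2 signal was between 10.78 and 11.69 (median 11.34) in CDS tumors and between 9.16 and 10.78 (median 9.57) in ES tumors, where ES 46 reached the lowest CDS tumor. A second probe set of Itgb5 was not called as deposited against ES tumors (1.14, adjusted p = 0.142) and was called after quantile normalization (2.26). Against eMC empty the brighter probe set of Itgb5 was called as deposited only (1.68, adjusted p = 0.0372; 0.97 after quantile normalization). That call was lost without any 1 of 6 of the 10 arrays (CDS 1 to 4, eMC empty 4 and 5; adjusted p 0.0595 to 0.128). The second probe set was not called there on either scale (1.20 as deposited, adjusted p = 0.255). After scaling to a common median, Itgav (0.46, adjusted p = 0.508) and Itgb5 (0.49, adjusted p = 0.542) were not called against ES tumors.

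Itga9, which binds tenascin-C and the alternatively spliced EIIIA segment of fibronectin and is known from lymphatic endothelium, had a narrow range in CDS tumors: 10.45 at the lowest, 10.83 at the median and 11.04 at the highest. It was 7.92, 8.10, 7.15 and 5.81 in eMC CIC-DUX4 5 to 8, 4.02, 4.18, 3.81 and 3.44 in eMC empty 4 to 7, and 3.76 at the lowest, 6.53 at the median and 7.59 at the highest in ES tumors. On this probe set no array of another group reached a CDS tumor. On the second probe set of Itga9, CDS 5 was at 5.20, below all 4 arrays of eMC CIC-DUX4 (6.39 to 8.18), and the other CDS tumors were between 8.57 and 9.82. After quantile normalization CDS 5 was at 6.97, above eMC CIC-DUX4 (4.75 to 5.48). The second probe set was called against eMC empty (5.04, adjusted p = 0.00244) and ES tumors (5.05, adjusted p = 0.00123), and against eMC CIC-DUX4 only after quantile normalization (3.17; 1.34 as deposited, adjusted p = 0.295). CDS tumors were at least 15.1-fold higher in Itga9 than eMC empty (6.91 ± 0.70 on the log2 scale, adjusted p = 2.49e-06; 4.90 after quantile normalization). It rose by 4.56 ± 0.65 against ES tumors (adjusted p = 8.12e-05; 4.91) and by 3.52 ± 0.52 against eMC CIC-DUX4 (adjusted p = 0.000375; 5.47). Between the eMC groups the scales gave opposite signs, 3.39 as deposited (adjusted p = 0.000574) and -0.57 after quantile normalization (adjusted p = 0.0211), so no direction is given. With the brightest probe set, Itga9 and Itgb3 in CDS tumors kept their calls under each alternative tried, and Itga8 kept its calls against eMC empty and ES tumors.

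Markers of other cells also differed between the groups. The summed linear signal of 8 endothelial markers was 4890 to 10100 in CDS tumors, 716 to 5260 in ES tumors, 78.4 to 1110 in eMC CIC-DUX4 and 36.7 to 60.5 in eMC empty, where all 8 were below the dip on all 4 arrays. Of 7 endothelial markers tested, 6 rose in CDS tumors against eMC empty, 4 against eMC CIC-DUX4 and 1 against ES tumors, namely Cdh5 (3.38, adjusted p = 5.53e-05), the cadherin of endothelial junctions. Over all genes 12.9%, 4.05% and 9.37% rose in turn. The summed signal of 4 pericyte and smooth muscle markers was 16400 to 65900 in CDS tumors, 3030 to 13100 in ES tumors, 540 to 976 in eMC CIC-DUX4 and 19.5 to 32.1 in eMC empty, where all 4 were below the dip. Of 3 tested, Kcnj8 and Rgs5 rose against eMC empty both in CDS tumors and in eMC CIC-DUX4, and Rgs5 rose against ES tumors (2.19) and eMC CIC-DUX4 (8.14). In whole tumors a chain that is higher in each cell and a cell type that is more frequent cannot be told apart. Of the 8 endothelial markers, 2 were above the dip in CDS 5 (Cdh5 at 12.03 and Esam at 8.77), 5 in CDS 6 and 6 to 8 in CDS 1 to 4. In eMC CIC-DUX4 7 and 8 only Kdr was above it (5.61 and 6.23), and in eMC CIC-DUX4 5 all but Tie1 were. These counts depend on the dip, which was 8.10 in CDS 5, 6.95 in CDS 6 and 3.36 in eMC CIC-DUX4 5. Rgs5 was above the dip in all tumors, at 13.96 to 16.01 in CDS tumors and 11.48 to 13.50 in ES tumors. It made up most of the summed pericyte and smooth muscle signal there. Kcnj8 was above the dip in CDS 1, 2 and 4 and in all ES tumors, Cnn1 in CDS 2 only, and Myh11 in no tumor. The part of endothelium and pericytes in the signals of Itga8, Itga9 and Itgb3 was not tested.

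Itga6, the alpha chain of the laminin receptors that pair with Itgb1 or, in hemidesmosomes, with Itgb4, rose in CDS tumors against both eMC groups. Its log2 signal was 11.96 at the lowest, 12.54 at the median and 13.12 at the highest in CDS tumors and 10.49, 10.46, 10.64 and 10.56 in eMC CIC-DUX4 5 to 8. In eMC empty 4 to 7 it was 7.46, 6.47, 9.91 and 9.96, so that this group split into a pair of lower and a pair of higher arrays, which after quantile normalization lay together between 9.56 and 9.94. ES tumors were between 11.09 and 12.06 (median 11.54), and ES 41 overlapped the lowest CDS tumors. The log2 fold change of CDS tumors was 4.06 ± 0.62 against eMC empty (adjusted p = 0.000199; 2.73 after quantile normalization) and 1.97 ± 0.29 against eMC CIC-DUX4 (adjusted p = 0.000394; 2.25). After scaling to a common median neither was called (adjusted p = 0.0558 and 0.261 in turn). Against ES tumors it was 0.95 (adjusted p = 0.0175; 0.94), just under the fold set for a call, and a second probe set was called at 1.71. Itgb4 was below the dip in every CDS and ES tumor and was not called in any comparison.

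Of the laminin chains only Lamc1, the gamma chain of most laminins, rose in each of the 3 comparisons of CDS tumors. In CDS tumors its log2 signal was 11.13 at the lowest, 11.49 at the median and 12.96 at the highest, in eMC CIC-DUX4 5 to 8 10.52, 10.38, 10.56 and 10.54, in eMC empty 4 to 7 8.13, 5.64, 9.28 and 9.85, and in ES tumors 8.45 at the lowest, 9.65 at the median and 10.32 at the highest. CDS tumors did not overlap any other group. Lamc1 rose by 3.46 ± 0.69 against eMC empty (adjusted p = 0.00193; 2.26 after quantile normalization), by 2.12 ± 0.39 against ES tumors (adjusted p = 0.001; 2.81) and by 1.19 ± 0.36 against eMC CIC-DUX4 (adjusted p = 0.0336; 1.55). The last call was lost without any of CDS 3, CDS 6 or the 4 arrays of eMC CIC-DUX4, when the log2 fold change was 0.93 to 1.21 and the adjusted p 0.0289 to 0.0923. A second probe set of Lamc1 was called as deposited against ES tumors (3.73, adjusted p = 0.0189) and not against eMC empty (1.80) or eMC CIC-DUX4 (-0.51). After scaling to a common median, Lamc1 was not called in any of the 3 (adjusted p 0.116, 0.182 and 0.489 in turn).

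Lamb1, the beta chain that joins Lamc1 in many laminins, was bright on all 20 arrays. Its log2 signal was between 11.85 and 12.39 in CDS tumors, 10.10 and 12.73 in ES tumors, 12.43 and 12.84 in eMC CIC-DUX4, and from 12.73 up to 13.23 in eMC empty, and this probe set was not called in any comparison on either scale. A dimmer probe set of Lamb1 was called higher as deposited between the eMC groups (3.66, adjusted p = 0.00281; 0.27 after quantile normalization), and that probe set and another were called lower on both scales in CDS tumors against eMC CIC-DUX4 (-4.12 and -1.80 as deposited). Lamb2, the beta chain of mature basement membranes at muscle, nerve and kidney filter, was below the dip in all eMC empty arrays (3.22 to 4.20) and at 8.89, 8.97, 8.76 and 8.87 in eMC CIC-DUX4 5 to 8. As deposited, Lamb2 was at least 4.04-fold higher there (5.15 ± 0.34 on the log2 scale, adjusted p = 8.28e-06; 2.02 after quantile normalization). In CDS tumors it ran from 4.15 to 9.56 (median 7.00) and in ES tumors from 2.74 to 7.37 (median 3.36), with overlap. CDS tumors were higher than eMC empty by 3.34 ± 1.17 (adjusted p = 0.0499; 2.37), a call lost without any of CDS 2, 3 or 4 or any 1 of the eMC empty arrays (adjusted p 0.0746 to 0.129). Against ES tumors Lamb2 was called after quantile normalization only (3.04, adjusted p = 9.88e-05; 2.61 as deposited, adjusted p = 0.118).

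Among the laminin alpha chains, Lama2, the chain of muscle basement membranes, was 8.26, 8.51, 8.03 and 7.89 in eMC CIC-DUX4 5 to 8 and between 3.05 and 3.66 in eMC empty, all below the dip. As deposited, the cells with the fusion were at least 2.49-fold higher (4.83 ± 0.33 on the log2 scale, adjusted p = 8.28e-06; 1.89 after quantile normalization). The median over all genes was higher there by 2.07 on the log2 scale. CDS tumors ran from 3.94 to 9.81 (median 6.57) and ES tumors from 2.99 to 8.50 (median 5.20), and Lama2 was not called as deposited in CDS tumors in any comparison (3.33 against eMC empty, adjusted p = 0.0596, called at 2.70 after quantile normalization). Lama1, the chain of early embryonic laminin, was dim in most arrays: 3.45 at the lowest, 4.36 at the median and 7.71 at the highest in CDS tumors, 1.94 to 2.62 in ES tumors, 5.17, 6.52, 2.12 and 2.02 in eMC CIC-DUX4 5 to 8 and 2.37 to 2.99 in eMC empty. The CDS tumors lay above all ES tumors and all eMC empty arrays, though only CDS 2 and 4 were above their dips. Lama1 rose by 2.94 ± 0.70 against ES tumors (adjusted p = 0.00647; 2.37) and by 2.52 ± 0.86 against eMC empty (adjusted p = 0.0452; 2.22), a call lost without any of CDS 2, 4 or 6 or any 1 of the eMC empty arrays (adjusted p 0.0521 to 0.127). Lama3, the alpha chain of epithelial laminin in skin, was between 3.50 and 9.05 (median 4.38) in CDS tumors and between 2.08 and 2.58 (median 2.32) in ES tumors, without overlap, and again only CDS 2 and 4 were above their dips. It rose by 2.98 ± 0.82 against ES tumors (adjusted p = 0.0158; 2.54) and was not called against either eMC group. Between the eMC groups Lama3 was called as deposited only (3.74, adjusted p = 0.000108; 0.34 after quantile normalization). Lamc3 was not called in any comparison.

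**Figure D3:**
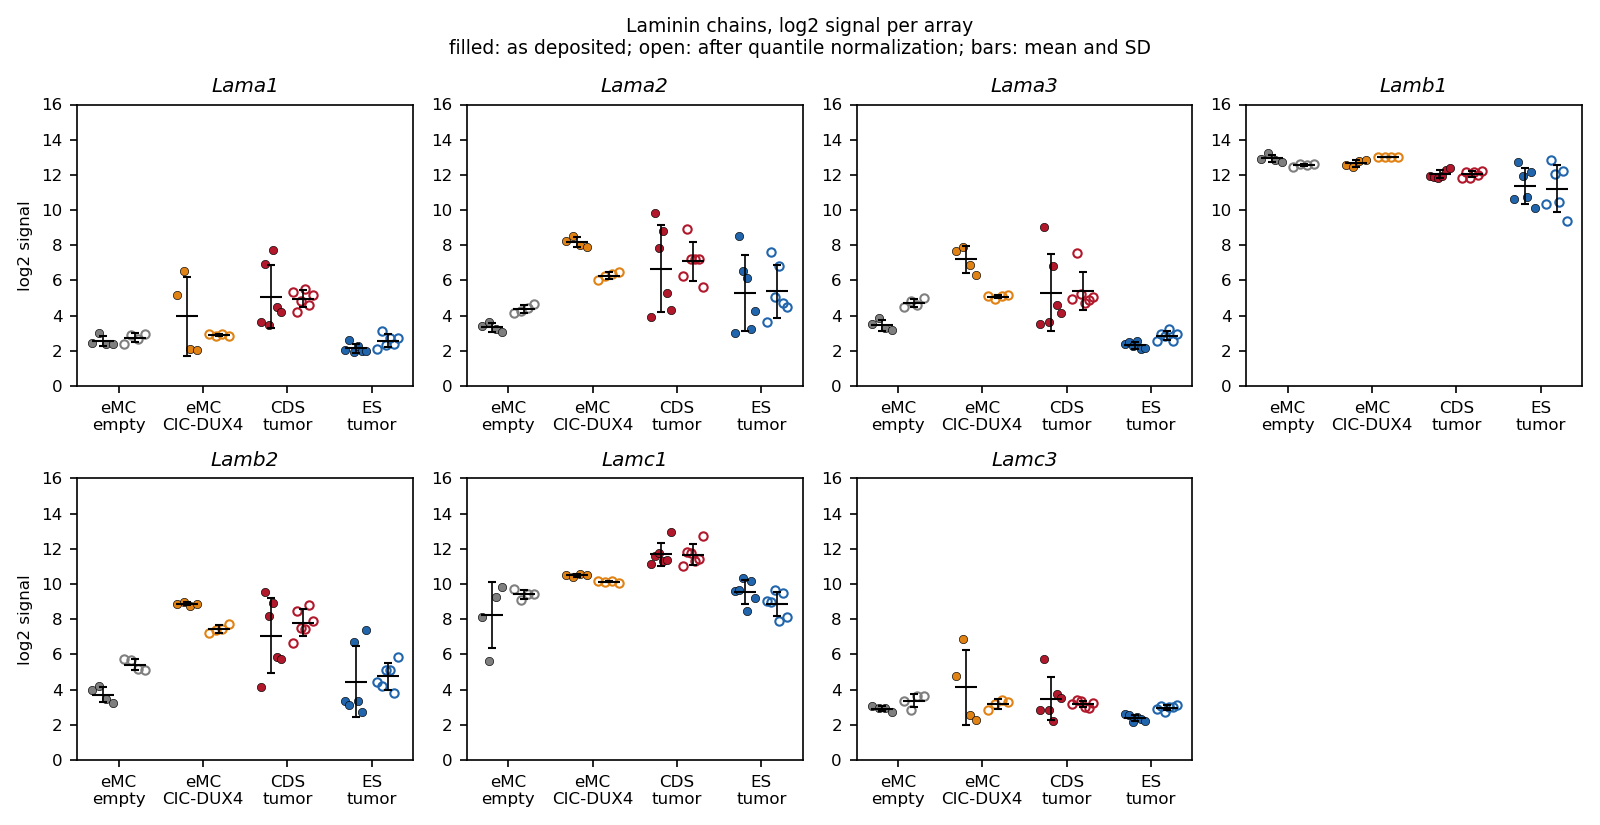
Log2 signal (y axis) of the 7 laminin chains tested on each array of the 4 groups (x axis), filled as deposited and open after quantile normalization, with bars for the mean and SD. Lamb1 and Lamc1 are bright in nearly all arrays, Lamc1 highest in CDS tumors (11.13 to 12.96), while Lama2 (3.94 to 9.81) and Lamb2 (4.15 to 9.56) are spread widely among the CDS tumors as deposited.

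Of the collagen-binding alpha chains, Itga1 and Itga10 rose in eMC with the fusion. Itga1, a receptor of type IV collagen, was 9.45, 9.38, 9.36 and 9.43 in eMC CIC-DUX4 5 to 8 and 4.49, 4.73, 4.21 and 5.53 in eMC empty 4 to 7. In CDS tumors it was 5.83 at the lowest (CDS 5, below that array's dip), 9.78 at the median and 9.82 at the highest, and in ES tumors 8.91, 9.85 and 11.03. After quantile normalization Itga1 in CDS tumors was between 8.80 (CDS 5) and 9.39. The groups of eMC did not overlap, and the tumors overlapped each other. Itga1 rose by 4.67 ± 0.36 in eMC CIC-DUX4 against eMC empty (adjusted p = 1.01e-05; 1.20 after quantile normalization) and by 4.34 ± 0.97 in CDS tumors against eMC empty (adjusted p = 0.00452; 1.95), and was not called against ES tumors (-0.95) or eMC CIC-DUX4 (-0.33). Itga10, a receptor of cartilage collagen, was 8.40, 8.50, 7.94 and 7.53 in eMC CIC-DUX4 5 to 8 and 3.06 to 3.72 in eMC empty. As deposited, it was at least 2.35-fold higher with the fusion (4.65 ± 0.36 on the log2 scale, adjusted p = 1.04e-05; 1.55 after quantile normalization). Its CDS tumors ran from 3.24 to 8.57, with CDS 2 and 4 above the dip, and were not called in any comparison. Itga2, the third of these receptors among the members, was not called in any comparison.

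Itga7, the laminin-binding chain of muscle, was 7.88, 8.30, 7.32 and 7.41 in eMC CIC-DUX4 5 to 8 and 2.68 to 3.52 in eMC empty. It rose by 4.55 ± 0.39, at least 1.83-fold as deposited (adjusted p = 1.39e-05; 1.72 after quantile normalization). In CDS tumors it ran from 2.52 to 8.60 and in ES tumors from 1.91 to 6.49, and it was not called in CDS tumors in any comparison. It was above the dip in CDS 2, 3 and 4 (4.77, 8.60 and 7.76) and in ES 46. Ckm, the creatine kinase of muscle, was at 7.00, 15.34, 13.71 and 13.70 in CDS 2, 3, 4 and 5. Itga7 was 4.73 in CDS 5, below the dip of that array (8.10), where the dip of CDS 2 was 4.02. After quantile normalization Itga7 was 2.62, 3.17, 7.86, 5.60, 5.33 and 2.19 in CDS 1 to 6. In the ES tumors Ckm was above the dip in all but ES 51 and highest in ES 48 (14.87), where Itga7 was 2.62 (3.28 after quantile normalization). The summed signal of 6 skeletal muscle markers was 513 to 244000 in CDS tumors, 12.3 to 163000 in ES tumors and 4660 to 7530 over all eMC arrays. The part of muscle in the Itga7 signal of the tumors was not tested. Itga3, another laminin-binding chain, was called in opposite directions between the eMC groups: 2.61 as deposited (adjusted p = 0.00564) and -1.50 after quantile normalization (adjusted p = 0.000157). Between CDS tumors and eMC empty it was 0.40 as deposited and -2.18 after quantile normalization (adjusted p = 0.000163), so no direction is given for Itga3. Itga4, a receptor of fibronectin and Vcam1, was called as deposited only between the eMC groups (4.11, adjusted p = 1.91e-05; 0.56 after quantile normalization). After scaling to a common median, none of the 14 calls between the eMC groups was kept, and the smallest adjusted p among them was 0.17.

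Of the leukocyte chains, Itgb2 alone was called on both scales. Its log2 signal was 9.11, 8.95, 8.88 and 8.87 in eMC CIC-DUX4 5 to 8 and 3.97, 4.11, 3.46 and 3.42 in eMC empty 4 to 7. As deposited, Itgb2 was at least 4.27-fold higher with the fusion (5.21 ± 0.32 on the log2 scale, adjusted p = 8.28e-06; 2.11 after quantile normalization). In CDS tumors 1 to 4 it was 8.32, 9.01, 9.24 and 9.17, and in CDS 5 and 6 it was 4.88 and 4.22. ES tumors ran from 3.87 to 10.39 (median 9.65) and overlapped the CDS tumors. CDS tumors were higher than eMC empty by 3.73 ± 1.21 (adjusted p = 0.0361; 1.70), a call lost without any 1 of 8 of the 10 arrays, all but CDS 5 and 6 (adjusted p 0.0538 to 0.0951). Itgb2 was not called against ES tumors (-0.89) or eMC CIC-DUX4 (-1.48). The summed linear signal of 10 macrophage and leukocyte markers was 24400 to 33100 in eMC empty, 24400 to 31500 with the fusion, 7170 to 71100 in CDS tumors and 17500 to 50100 in ES tumors. On the eMC arrays most of this sum was Lyz2, lysozyme, at 14.25 to 14.97 in eMC empty and 13.84 to 14.32 with the fusion. The sum thus says little about the other markers there. Ptprc, Csf1r and Coro1a were below the dip in all eMC empty arrays. Of the 10, 6 rose between the eMC groups (Ptprc by 5.05), 5 rose from eMC empty to CDS tumors (Ptprc by 6.45, Coro1a by 6.80) and 0 against ES tumors, where limma at an unadjusted p under 0.05 had 0 higher as deposited and 1 after quantile normalization. Over all genes 7.74%, 12.9% and 9.37% rose in turn. In CDS 5 and 6, where Itgb2 was lowest among the CDS tumors, 4 and 5 of the 10 markers were above the dip (Ptprc, Lyz2, Tyrobp and Fcer1g in both, Coro1a in CDS 6), and in CDS 1 to 4 it was 9 or all 10. The dip itself was higher in CDS 5 (8.10) and CDS 6 (6.95) than in CDS 1 to 4. Lyz2 was highest in CDS 5 and lowest in CDS 6 (10.81) among the CDS tumors. The part of leukocytes in the Itgb2 signal was not tested. Itgal and Itgax, which pair with Itgb2 on lymphocytes and on dendritic cells, were not called as deposited in any comparison, and after quantile normalization they were called in CDS tumors against eMC empty (1.32 and 1.05) and eMC CIC-DUX4 (1.13 and 1.03). Itgae and Itgb7, the chains of lymphocytes within epithelia, were not called in any comparison.

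The 4 members that were not tested were below the dip on all arrays of the tumors and of eMC empty. Itga5, the alpha chain of the classical fibronectin receptor, ran from 1.40 to 4.54 in the tumors and from 2.27 to 2.83 in eMC empty, with a highest value of 6.99 in eMC CIC-DUX4. Itgam, the macrophage chain, ran from 1.94 to 3.29 in the tumors, Itgb6, an epithelial chain, from 1.75 to 3.31, and Lamb3, an epithelial laminin chain, from 1.58 to 3.00. In eMC CIC-DUX4 5 to 8 Itgam was 5.55, 6.59, 1.90 and 2.00, Itgb6 3.50, 6.12, 1.68 and 1.78, and Lamb3 6.64, 7.25, 3.77 and 2.27. All 4 members were above the dip in eMC CIC-DUX4 5, where it was 3.36. After quantile normalization Lamb3 was 3.29 to 3.84 in eMC CIC-DUX4 and 2.57 to 3.08 in eMC empty. As these members were not tested, no order between groups is given.

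Ligands of integrins were followed through a list of 20 genes, of which 16 were tested. Between the eMC groups 4 rose and 0 fell on both scales, where 7.74% of all genes rose and 0.381% fell. They were Frem1 (4.93, adjusted p = 1.23e-05), Egfl6 (4.85, adjusted p = 0.000371), Cdh1 (4.64, adjusted p = 3.08e-05) and Npnt (4.34, adjusted p = 0.000749); nephronectin (Npnt), Frem1 and Egfl6 are known as ligands of the Itga8 receptor, and Cdh1, the epithelial cadherin, as that of Itgae with Itgb7. From eMC CIC-DUX4 to CDS tumors these 4 genes and Vcam1 fell, and Icam2 rose (5.61, adjusted p = 0.00385), where 12.5% of all genes fell and 4.05% rose. The log2 fold change was -6.86 for Cdh1, -6.05 for Npnt, -5.42 for Frem1, -5.25 for Egfl6 and -4.33 for Vcam1. Npnt was 9.89, 9.78, 9.87 and 9.65 in eMC CIC-DUX4 5 to 8 and 4.70, 4.95, 4.36 and 7.85 in eMC empty 4 to 7. CDS tumors were between 1.80 and 7.62, with CDS 4 the highest, and ES tumors between 3.36 and 9.58, with ES 48 the lowest. In CDS tumors, where Itga8 was highest, Npnt was lower than in ES tumors (-4.27 ± 1.24, adjusted p = 0.0207; -4.08 after quantile normalization), where Itga8 was below the dip in all arrays.

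In CDS tumors against ES tumors, 5 of the 16 ligands rose and 3 fell, where 9.37% of all genes rose and 9.46% fell. Frem2 fell by 7.58 on the log2 scale (adjusted p = 4.51e-06), from 9.34 to 10.99 in ES tumors to 1.73 to 3.49 in CDS tumors, without overlap. Cdh1 (-5.06, adjusted p = 0.0346) was between 1.66 and 12.38 in ES tumors and between 2.04 and 3.42 in CDS tumors, and ES 47 and 49 were as dim as the CDS tumors. The summed signal of 7 keratinocyte markers, Cdh1 among them, was 29.1 to 330 in CDS tumors, 497 to 19900 in ES tumors, 3770 to 4090 in eMC CIC-DUX4 and 849 to 1870 in eMC empty. The part of epithelial cells in the Cdh1 and Npnt signals was not tested. Icam1, a ligand of the Itgb2 integrins on endothelium and many other cells, rose by 5.10 (adjusted p = 0.000294), and Fn1, the fibronectin that both Itga8 and Itgav bind, rose by 1.78 (adjusted p = 0.000457; 1.45). Fn1 was bright throughout, between 13.98 and 15.66 in CDS tumors and between 12.31 and 14.02 in ES tumors, with ES 46 just above CDS 4, and was not called against eMC empty (0.13). Tnc, tenascin-C, rose by 1.22 (adjusted p = 0.0345; 1.69), and Egfl6 and Tgfb1 were the others. In CDS tumors against eMC empty, Icam2 (6.64, adjusted p = 0.000257) and Icam1 (3.12, adjusted p = 0.00753) rose and Cdh1 fell by 2.22 (adjusted p = 0.00555), where 12.9% of all genes rose and 4.24% fell. Icam2 is a marker of endothelium as well as a ligand.

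**Figure D4:**
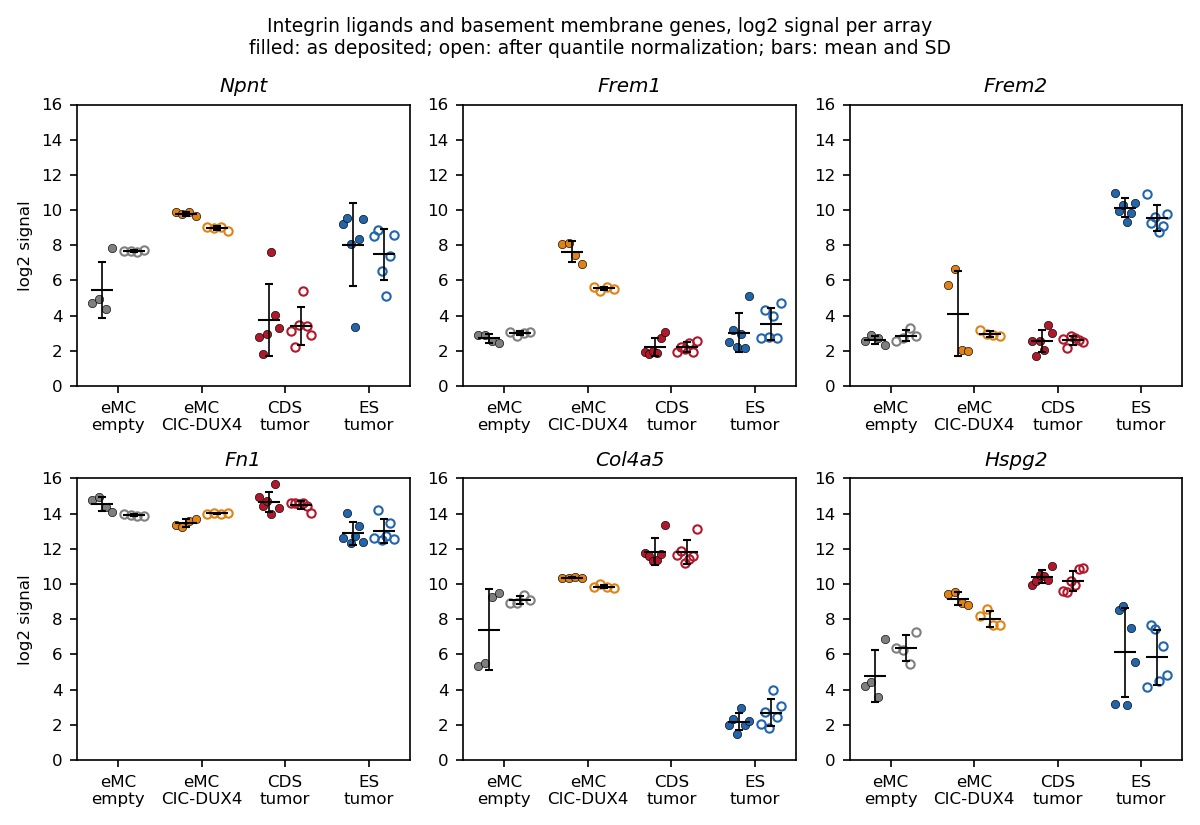
Log2 signal (y axis) of 4 integrin ligands (Npnt, Frem1, Frem2, Fn1) and 2 basement membrane genes (Col4a5, Hspg2) on each array of the 4 groups (x axis), filled as deposited and open after quantile normalization, with bars for the mean and SD. Npnt and Frem1 are highest in eMC CIC-DUX4 and Frem2 in ES tumors, and Col4a5 lies between 11.31 and 13.37 in CDS tumors and between 1.50 and 2.95 in ES tumors.

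The other basement membrane genes and laminin receptors formed a list of 20 genes, of which 15 were tested. In CDS tumors against ES tumors 8 rose and 0 fell, where 9.37% of all genes rose and 9.46% fell, with a median log2 fold change of 1.26 against 0.02 over all genes. Col4a5, a chain of the collagen IV network, was between 11.31 and 13.37 in CDS tumors and between 1.50 and 2.95 in ES tumors, a log2 fold change of 9.69 ± 0.77 (adjusted p = 1.27e-07; 9.12). Smoc1, a matricellular protein of basement membranes, rose by 4.52 (adjusted p = 0.00329) and Hspg2, perlecan, by 4.29 (adjusted p = 0.00403). Col4a1, Col4a2, Col18a1, Nid1 and Sdc4 were the others. Against eMC empty 3 rose and 0 fell, namely Hspg2 (5.63, adjusted p = 8.32e-05), Col4a5 (4.45, adjusted p = 0.000854) and Col4a4 (1.55, adjusted p = 0.0361), where 12.9% of all genes rose and 4.24% fell. Against eMC CIC-DUX4, Col4a5 (1.49, adjusted p = 0.017) and Hspg2 (1.23, adjusted p = 0.0404) rose, where 4.05% of all genes rose and 12.5% fell. Col4a5 was 10.35, 10.32, 10.42 and 10.36 in eMC CIC-DUX4 5 to 8 and 5.33, 5.52, 9.26 and 9.51 in eMC empty 4 to 7, and between the eMC groups it was called as deposited only (2.96, adjusted p = 0.0271; 0.78). In that comparison 3 genes of the list rose (Agrn, Col18a1 and Hspg2) and 0 fell, where 7.74% of all genes rose and 0.381% fell.

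Of 20 genes of the machinery that joins integrins to actin, 18 were tested. In the eMC 0 rose and 0 fell on both scales in limma, with 7 called higher and 3 lower as deposited and 0 and 2 after quantile normalization (7 and 7, and 3 and 10, at an unadjusted p under 0.05). The largest as deposited were Lims2 (4.19), Parvb (4.15) and Pxn (4.13), which were 0.14, 0.84 and 0.29 after quantile normalization. In CDS tumors against eMC empty 1 rose, Tln2 (4.78 ± 0.96, adjusted p = 0.00196; 2.54), a talin, and 1 fell, Vcl (-2.12 ± 0.28, adjusted p = 4.53e-05; -1.60), vinculin. Over all genes 12.9% rose and 4.24% fell there. Against ES tumors 3 of the 18 rose and 0 fell, where 9.37% of all genes rose and 9.46% fell: Tln2 (4.90, adjusted p = 0.0023), Parvb (3.74, adjusted p = 0.0105) and the kindlin Fermt2 (1.02, adjusted p = 0.0174). Against eMC CIC-DUX4, Lims2 (-3.31, adjusted p = 0.0311) and Parva (-2.86, adjusted p = 0.0391) fell and 0 rose, where 12.5% of all genes fell and 4.05% rose. Tln2 was between 6.21 (CDS 5) and 10.73 in CDS tumors and between 2.69 and 6.63 in ES tumors, where ES 46 lay above CDS 5.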

How the data were processed

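RNA of 20 samples was measured on 1 array each: 6 CDS tumors, 6 ES tumors, 4 eMC CIC-DUX4 and 4 eMC empty. The deposited values are log2 signals of 45141 probe sets; per the submitters' processing notes the authors used MAS5, with settings not given in the sources used here, and each array's linear signals have a 2% trimmed mean near 500.2, so the arrays were scaled by their bright end. After removal of 104 control probe sets, 45037 remained, of which 28898 have a single symbol in the platform annotation, 551 several and 15588 none. Signals were taken to the linear scale, 1.423 was added (0.25 times the median of the array medians) and log2 was taken again. Probe sets above their array's median in at least 4 of 20 arrays were kept (26897, of which 19542 with a single symbol), and each of 12343 genes was represented by the probe set of highest mean. Each comparison was fitted on its 2 groups with limma 3.58.1 in R 4.3.3 (lmFit, eBayes with trend, two-sided), and again after quantile normalization. The dip is the lowest point of each array's signal density (bandwidth 0.35) between its dim and bright parts; "at least" folds set the brighter group against a dimmer group that lay below it on all arrays. The fit was tested on simulated data. The number of arrays limits the precision, and levels of different probe sets were not compared. The members and lists were chosen with earlier results of these data known. Members called on both scales are described array by array, with those that differ between scales or in their partners; from each list, genes called on both scales are named. Member coordinates and the promoter sequence are from RefSeq, GRCm38.p6, and all 30 member genes matched by Entrez identifier. Alternatives were median scaling, other offsets and filters, no trend, the mean of probe sets, a stricter threshold, all groups in the same fit, the replicate number as a block, and fits without each array or without the 3 arrays of high median.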

Additional observations from a re-analysis of the deposited data

Results flagged for a closer look

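In 60 groups of 4 or 6 arrays over 15 members, 3 held an array that stood apart from the rest of its group by Dixon's test; chance gives about 1 in 20. As deposited, Itga1 in CDS 5 was 5.83, where the nearest CDS tumor was 9.46. After quantile normalization it was 8.80, beside 8.81 to 9.39 in the other CDS tumors. Lama1 in eMC empty 5 was 2.99 as deposited, where the nearest array was 2.45, all of them below the dip. On the quantile scale it was 2.92, beside 2.94 in eMC empty 7. Lamc1 in CDS 6 was 12.96 as deposited, where the nearest CDS tumor was 11.77 (12.74 and 11.81 after quantile normalization).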

How the results depend on the processing

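Members called as deposited numbered 14 between the eMC groups, and for CDS tumors 11 relative to eMC empty, 8 to ES tumors and 5 to eMC CIC-DUX4; on both scales they numbered 7, 9, 8 and 5. Scaling to a common median gave 0, 3, 5 and 2 in either count. With quantile normalization 8 were called between the eMC groups and 8 against eMC CIC-DUX4. With all 4 groups in the same fit, 2 were called on both scales between the eMC groups. Against eMC empty, 6 were called at an adjusted p under 0.01 and 7 without the arrays of high median. Against eMC CIC-DUX4, 8 were called with the mean of the probe sets of a gene. Whether equal replicate numbers mark paired samples was not settled. Deviations of equally numbered arrays correlated at -0.188 to 0.383 between the eMC groups. For CDS tumors they correlated at -0.189 to 0.494 with eMC empty and 0.0474 to 0.285 with eMC CIC-DUX4. Unequal numbers were not compared, so these values cannot decide it. With the replicate block 13, 6 and 15 members were called in these comparisons, against 14, 11 and 5 without it. Leaving out 1 array in turn gave 12 to 15 calls between the eMC groups (7 in each on both scales), 7 to 12 against eMC empty (6 to 11), 8 to 10 against ES tumors (8 to 9) and 4 to 9 against eMC CIC-DUX4 (4 to 5), with 9 without CDS 2. Among members called in at least 1 of the settings compared, the sign turned with quantile normalization for Itga3 (-1.50 between the eMC groups, -2.18 in CDS tumors against eMC empty), Itga9 (-0.57 between the eMC groups) and Itgax (1.03 against eMC CIC-DUX4), with the mean of probe sets for Lamb1 (1.24 between the eMC groups) and Itgav (-1.64 against eMC CIC-DUX4), and with the replicate block for Itgal (-2.67 against eMC CIC-DUX4). The cause was not tested. Signals below the dip give bounds and no levels.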
